A study of Homo sapiens with 4 samples.

Results

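The collagen chain genes were taken from the deposited expression table as every row whose symbol has the form COL, a type number, A and a chain number, which gave 44 of the 58229 genes kept. Of these, 9 are fibrillar chains (types 1, 2, 3, 5 and 11), 8 are basement membrane chains (types 4, 15 and 18) and 27 belong to other types. RNA was measured by sequencing in CD31+ cells that were obtained at day 8 of hematopoietic differentiation from the established human embryonic stem cell line H1. CD31, the product of PECAM1, marks endothelial cells and early blood-forming cells. The study held 2 Control libraries, made from H1 cells without HAND1 overexpression, and 2 HAND1_OE libraries, made from H1 cells in which the mesodermal transcription factor HAND1 was overexpressed. Both groups received activin A with BMP4 and then VEGF with bFGF. Nothing in the sources used here gives the vector or promoter that drove HAND1, says whether the cells were a clone, or says that libraries of a group came from separate cultures, so the p-values below measure only the spread between these libraries.

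Collagens are mostly secreted proteins whose alpha chains wind around each other into a long helix. Fibrillar chains assemble into the banded fibres of connective tissue, whereas type 4 chains form the sheet-like network under endothelium and epithelium, and COL15A1 and COL18A1 encode collagens attached to that basement membrane. A cleaved end of the COL18A1 chain is endostatin, known as an inhibitor of vessel growth. The procollagen chains are hydroxylated, folded and exported through the secretory pathway, trimmed by proteases, crosslinked outside the cell and sensed by integrins and discoidin domain receptors.

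HAND1 itself, on chromosome 5, stood at 12.1 and 14.3 FPKM (Control) against 520 and 517 FPKM (HAND1_OE), so each library matched its label (log2 fold change 5.20, SE 0.152, adjusted p = 0.00145). FPKM is fragments per kilobase of transcript, scaled to the depth of the library, and it can be compared between genes because it is a level per length. Fold changes are HAND1_OE against Control on the scale of log2(FPKM + 1), which understates the change of low genes, and adjusted p-values are from limma over 14622 tested genes. A gene was called at an adjusted p under 0.05. The libraries summed to between 536284 and 606609 FPKM, with 13989 to 14542 genes at 1 FPKM or more and 7.46% to 8.93% of the sum from mitochondrial genes. Counts behind the values are unknown, so no counting interval can be given. PECAM1, the gene of the gate, stood at 95.5 and 141 FPKM (Control) against 92.0 and 160 FPKM (HAND1_OE).

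Collagen chains took a larger part of the transcriptome in HAND1_OE. Summed over all 44 chains, they reached 1557 and 1609 FPKM (Control) against 2924 and 2815 FPKM (HAND1_OE). As a share of all FPKM these sums were 0.257% and 0.3001% in Control and 0.505% and 0.516% in HAND1_OE. The groups did not overlap on either measure. In bulk RNA, more cells that make collagen and more collagen RNA per cell cannot be told apart. With 2 libraries against 2, an exact permutation test cannot reach 0.05, so class sums and ratios are described for each library with no test.

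The added collagen RNA came mostly from a basement membrane chain. Basement membrane chains summed to 481 and 666 FPKM (Control) against 1546 and 1604 FPKM (HAND1_OE), which was 30.9% and 41.4% of collagen FPKM in Control and 52.9% and 57.0% in HAND1_OE. Fibrillar chains summed to 532 and 463 FPKM (Control) against 646 and 628 FPKM (HAND1_OE), so their sum was higher in both HAND1_OE libraries. Their share of collagen FPKM, a total that includes COL18A1, was lower there, at 22.1% and 22.3% against 34.1% and 28.7% in Control. The other chains summed to 544 and 481 FPKM (Control) against 732 and 584 FPKM (HAND1_OE). COL18A1 alone made up 9.81% and 12.1% of collagen FPKM in Control and 34.6% and 29.7% in HAND1_OE. With COL18A1 left out, the basement membrane share of the remaining collagen FPKM was 23.4% and 33.3% in Control and 27.9% and 38.8% in HAND1_OE, and the groups overlapped. The fibrillar share of that remainder overlapped between the groups as well. The sum of all other chains was still higher, at 1405 and 1414 FPKM (Control) against 1912 and 1980 FPKM (HAND1_OE).

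**Figure D1:**
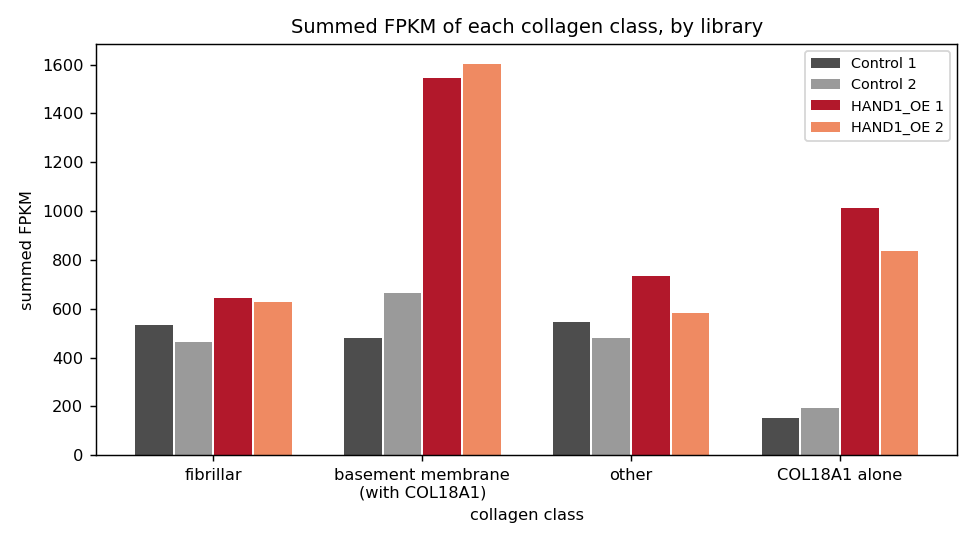
Bars show the summed FPKM of the fibrillar, basement membrane and other collagen chains and of COL18A1 alone in each of the 4 libraries. The basement membrane bars stand at 1546 and 1604 FPKM in HAND1_OE against 481 and 666 FPKM in Control, and COL18A1 reaches 1012 and 835 FPKM of those sums.

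Of the 44 chains, 27 passed the filter of at least 1 FPKM in at least 2 libraries and were tested, 8 of 9 fibrillar, 6 of 8 basement membrane and 13 of 27 other chains. Of these 27, 3 were called higher in HAND1_OE (COL18A1, COL26A1 and COL5A2) and 1 was called lower (COL24A1). That is 14.8% of the tested chains called, beside 4.16% of all tested genes, and 11.1% called higher, beside 2.04% of all tested genes, with 2.11% of all tested genes called lower. The fold change was above 0 for 18 of 27 chains, or 66.7%, and the same held for 38.7% of all tested genes. The median was 0.29 over the 27 chains and -0.08 over all tested genes. The 2 libraries of HAND1_OE lay on 1 side of both Control libraries for 19 of 27 chains (12 higher and 7 lower), or 70.4%, beside 46.3% of all tested genes. COL11A2 and COL24A1 passed the filter only through their Control libraries, where they are high, so that their values had to differ. Without them, 3 of 25 chains were called higher and 0 lower, and the median was 0.33. When all genes above 0 in any library were tested, limma called 0 chains higher and 0 lower, with 10 and 3 at an unadjusted p under 0.05.

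The classes differed in their medians. The median log2 fold change was 0.77 over the 6 tested basement membrane chains, of which 5 had a fold change above 0 and 4 lay apart and higher. It was -0.07 over the 8 tested fibrillar chains, of which 4 lay above 0 and 4 below, with 3 apart and higher and 4 apart and lower. That fibrillar median was 0.08 without HAND1_OE replicate 1 and -0.21 without HAND1_OE replicate 2, and it was above 0 with either scaling alternative, so the fibrillar chains had no settled direction as a class. The median was 0.18 over the 13 tested chains of other types, of which 9 lay above 0 and 4 below, with 5 apart and higher and 3 apart and lower. The median of other chains was 0.35 with a pseudocount of 0.1, 0.35 with 1 FPKM in every library, 0.31 with quantile normalization, 0.28 with median-ratio scaling and 0.058 over all 27 chains of other types when all genes above 0 were tested. It was -0.0043 without Control replicate 2 and 0.38 without HAND1_OE replicate 1. Of all tested genes, 16.2% lay apart and higher and 30.1% apart and lower. COL11A2 (fibrillar) and COL24A1 (other) passed the filter only through Control, so they had to lie apart and lower. Without them, the median was 0.10 over 7 fibrillar chains and 0.26 over 12 other chains. No test was made between classes.

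**Figure D2:**
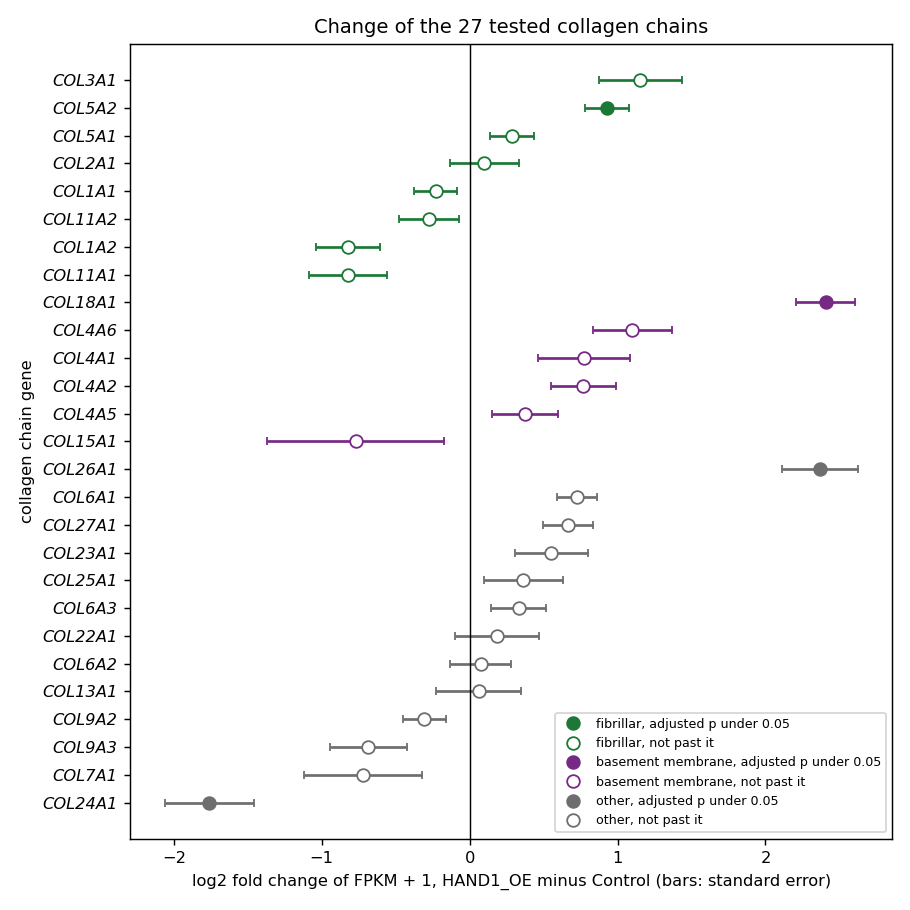
Points give the log2 fold change of FPKM + 1 (HAND1_OE minus Control) of the 27 tested chains with bars of 1 standard error, grouped by class, and filled points have an adjusted p under 0.05. COL18A1 and COL26A1 lie at 2.41 and 2.37, COL24A1 lies at -1.76, and the fibrillar chains are spread on both sides of 0.

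COL18A1, the basement membrane chain that carries endostatin, was one of 3 chains called higher. The gene (ENSG00000182871.14, chromosome 21, bases 45405137 to 45513720, plus strand, GRCh38) stood at 153 and 195 FPKM (Control) against 1012 and 835 FPKM (HAND1_OE). Its mean went from 174 ± 30.0 to 924 ± 126 FPKM (SD, n = 2), 5.31-fold in FPKM. The 2 groups were far apart, and its fold change of 2.41 (SE 0.202, adjusted p = 0.00731) was the 37th largest rise of the tested genes. In the order of levels of all genes it stood at 516 and 336 in the Control libraries and at 87 and 86 in the HAND1_OE libraries. It was called under each alternative setting and without each library in turn, except when all genes above 0 were tested (adjusted p = 0.153). SLC19A1, the reduced folate carrier gene, lies on the opposite strand and shares 20149 bases with COL18A1. It stood at 8.26 and 10.1 FPKM (Control) against 23.7 and 29.4 FPKM (HAND1_OE) (log2 fold change 1.44, SE 0.185, adjusted p = 0.021). The labels name no stranded protocol and do not say whether counting used strand, so reads from the shared bases may not have been told apart. SLC19A1 was far below COL18A1 in every library.

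COL26A1 encodes a collagen with an EMI domain and belongs to neither of the main classes. The gene (ENSG00000160963.13, chromosome 7, bases 101362820 to 101559024, plus strand) stood at 20.9 and 14.4 FPKM (Control) against 113 and 78.0 FPKM (HAND1_OE). Its mean went from 17.7 ± 4.61 to 95.4 ± 24.5 FPKM (SD, n = 2), 5.40-fold in FPKM, with no overlap between the groups. Its fold change of 2.37 (SE 0.257, adjusted p = 0.0129) was the 39th largest rise of the tested genes. The order of COL26A1 and COL18A1 turned with the measure. COL26A1 was ahead in FPKM fold, with a pseudocount of 0.1 (2.43 against 2.41) and with quantile normalization (2.41 against 2.37). COL26A1 was also ahead without Control replicate 1 (2.62 against 2.23) and without HAND1_OE replicate 2 (2.63 against 2.545). Like COL18A1, it lost its call only when all genes above 0 were tested (adjusted p = 0.170).

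Because COL18A1 and COL26A1 had the 2 largest rises of the tested chains, the sequence before their first RefSeq start is shown, together with the stretch between COL4A5 and COL4A6, a pair described below. Sequences are 5′ to 3′ on the plus strand from RefSeq promoter entries (GRCh38.p14), with bases that GENCODE 29 places in an exon left out. Capitals mark GGGCGG, the core of the GC box, or CANNTG, the E-box read by basic helix-loop-helix proteins such as HAND1, on either strand. The COL18A1 stretch is chr21:45404915-45405136, the COL26A1 stretch is chr7:101362625-101362819 and the shared stretch is chrX:108439588-108439837. The first 2 end at the base before the gene in the table, and the third lies between the starts of a divergent pair.
COL18A1: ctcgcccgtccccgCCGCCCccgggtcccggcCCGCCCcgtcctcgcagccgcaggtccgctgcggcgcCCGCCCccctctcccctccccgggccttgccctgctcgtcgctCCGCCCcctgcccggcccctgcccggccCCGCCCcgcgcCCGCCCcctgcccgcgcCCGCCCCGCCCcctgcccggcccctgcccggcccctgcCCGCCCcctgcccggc
COL26A1: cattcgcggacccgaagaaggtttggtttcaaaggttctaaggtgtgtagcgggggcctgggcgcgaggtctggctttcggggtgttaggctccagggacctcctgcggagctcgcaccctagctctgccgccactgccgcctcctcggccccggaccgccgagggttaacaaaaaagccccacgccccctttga
COL4A5 and COL4A6: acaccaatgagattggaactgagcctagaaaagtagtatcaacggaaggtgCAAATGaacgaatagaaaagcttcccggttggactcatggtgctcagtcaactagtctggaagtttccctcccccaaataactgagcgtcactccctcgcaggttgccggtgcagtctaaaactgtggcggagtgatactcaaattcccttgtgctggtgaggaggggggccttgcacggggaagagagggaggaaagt

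The COL18A1 stretch was 88.7% G and C over 222 bases, with 9 GGGCGG matches, some of them overlapping, and no CANNTG. The COL26A1 stretch held neither motif and was 64.1% G and C over 195 bases. The stretch shared by COL4A5 and COL4A6 had 1 CANNTG and no GGGCGG and was 51.2% G and C over 250 bases. RefSeq also lists a later COL18A1 start, at base 45455522, with 66.4% G and C and 1 GGGCGG in the 250 bases before it, and the table gives a value per gene and not per start. Promoter entries were held for 32 of the 44 chains, 44 entries in all. Chains without an entry include COL1A1, COL1A2, COL2A1, COL3A1, COL5A2 and COL6A1, which are described below. Some chains, such as COL11A2 and COL10A1, have several entries, so the shares that follow are of entries and not of chains. On either strand of the 250 bases before the start, CANNTG was found in 52.3% of collagen entries and 61.8% of all 34943 entries, CATCTG (a form of CANNTG) in 6.8% and 12.2%, GGGCGG in 54.5% and 42.5%, TATAAA in 18.2% and 10.8%, and CATTCC in 6.8% and 11.9%. The median G and C content was 64.2% for collagen entries and 58.0% for all. These matches describe letters and not bound sites.

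**Figure D3:**
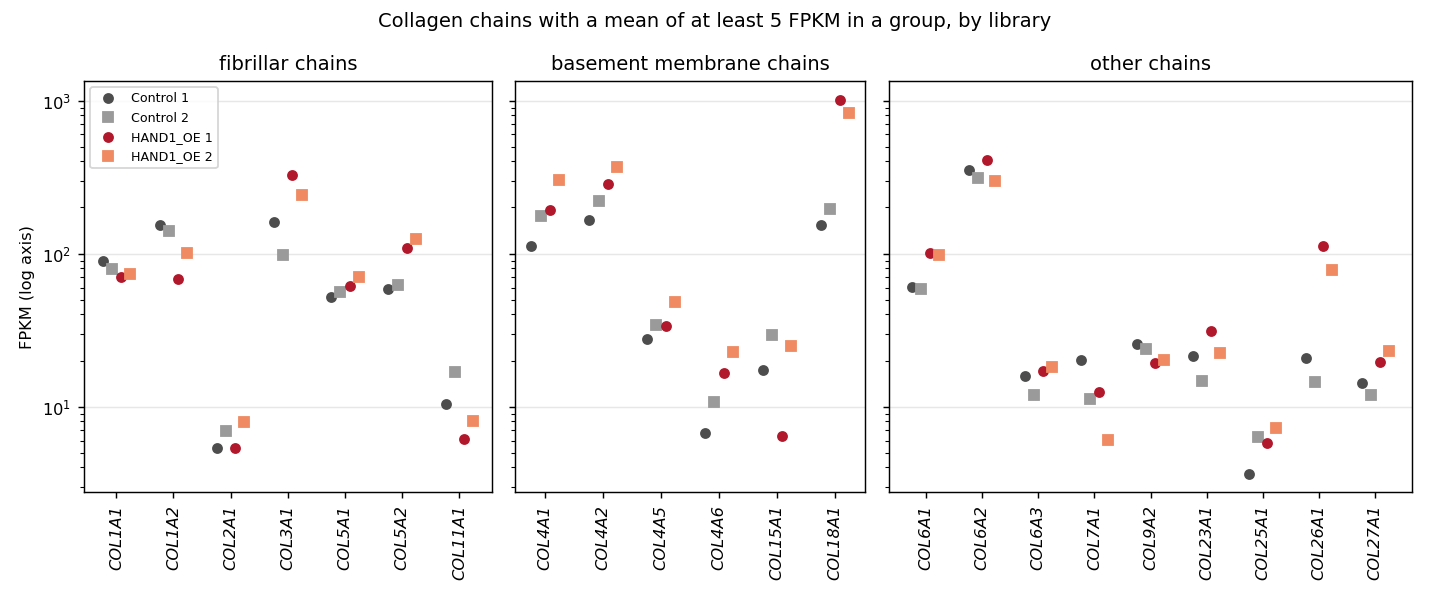
FPKM on a log axis of the 22 chains with a mean of at least 5 FPKM in a group, with a point for each of the 4 libraries and a panel for each class. Both HAND1_OE points lie above both Control points for 12 chains and below them for 4, and COL18A1 and COL26A1 show the widest gaps. Of all tested genes, 16.2% lay apart and higher in HAND1_OE and 30.1% apart and lower.

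Among the network chains of the basement membrane, COL4A1 and COL4A2 encode the pair of chains found in nearly all basement membranes. COL4A1 stood at 112 and 177 FPKM (Control) against 191 and 303 FPKM (HAND1_OE). COL4A2 stood at 165 and 219 FPKM (Control) against 285 and 368 FPKM (HAND1_OE). Each had both HAND1_OE libraries above both Control libraries, with the same fold change of 0.77, and neither passed the threshold (SE 0.311, adjusted p = 0.289 for COL4A1 and SE 0.219, adjusted p = 0.149 for COL4A2). Their values moved together from library to library. The ratio of COL4A1 to COL4A2 was 0.682 and 0.806 in Control and 0.671 and 0.824 in HAND1_OE, so the groups overlapped. The 2 genes run in opposite directions on chromosome 13, and their coordinates in the table share 1338 bases.

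COL4A5 and COL4A6 encode chains of a more restricted network and lie head to head on chromosome X, 346 bases apart. COL4A6 stood at 6.76 and 10.7 FPKM (Control) against 16.5 and 22.9 FPKM (HAND1_OE), with no overlap (log2 fold change 1.10, SE 0.266, adjusted p = 0.0981). COL4A5 stood at 27.6 and 34.1 FPKM (Control) against 33.4 and 48.0 FPKM (HAND1_OE), and the groups overlapped (log2 fold change 0.38, SE 0.222, adjusted p = 0.486). The ratio of COL4A5 to COL4A6 was lower in HAND1_OE, at 2.03 and 2.10 against 4.08 and 3.18 in Control. The remaining type 4 pair, COL4A3 and COL4A4, known from the kidney glomerulus, was too low to be tested. COL4A4 stood at 0.145 and 0.0915 FPKM (Control) against 0.772 and 1.04 FPKM (HAND1_OE), whereas COL4A3 was listed at 0 in Control and reached 0.0735 and 0.170 FPKM (HAND1_OE). These 2 also lie head to head, 451 bases apart on chromosome 2, and both were higher in HAND1_OE at these low levels.

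COL15A1, the basement membrane relative of COL18A1, did not share its pattern. It stood at 17.4 and 29.6 FPKM (Control) against 6.45 and 24.9 FPKM (HAND1_OE) (log2 fold change -0.77, SE 0.597, adjusted p = 0.606). The 2 HAND1_OE libraries were farther apart than the group means. Its fold change was 0.13 without HAND1_OE replicate 1 (adjusted p = 0.910) and -1.67 without HAND1_OE replicate 2 (adjusted p = 0.0305).

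Among the fibrillar chains, COL5A2 was called higher. COL5A2 encodes a type 5 chain that joins the type 1 fibril and limits its width. It (ENSG00000204262.11, chromosome 2, bases 189031896 to 189179879, minus strand) stood at 58.6 and 62.6 FPKM (Control) against 109 and 124 FPKM (HAND1_OE). Libraries of a group were close to each other and the groups lay apart, with a mean 1.92-fold higher in FPKM (log2 fold change 0.93, SE 0.15, adjusted p = 0.0354). The call was near the threshold, since leaving out a library gave adjusted p-values of 0.145 (Control replicate 1), 0.121 (Control replicate 2), 0.0579 (HAND1_OE replicate 1) and 0.104 (HAND1_OE replicate 2), and testing all genes above 0 gave 0.167. Its partner COL5A1 stood at 51.9 and 56.1 FPKM (Control) against 61.8 and 70.5 FPKM (HAND1_OE) (log2 fold change 0.29, SE 0.15, adjusted p = 0.423). The ratio of COL5A1 to COL5A2 was 0.886 and 0.896 in Control and 0.568 and 0.568 in HAND1_OE, a gap much wider than the spread within a group. The third type 5 chain, COL5A3, was not tested, at 0.0153 to 0.0325 FPKM.

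COL3A1 encodes the chain of type 3 collagen, a fibril of vessel walls and other stretchable tissue. It stood at 160 and 97.9 FPKM (Control) against 325 and 241 FPKM (HAND1_OE), with no overlap (log2 fold change 1.16, SE 0.283, adjusted p = 0.10). It lies tail to tail with COL5A2, 19149 bases away, and the ratio of COL3A1 to COL5A2 overlapped between the groups, at 2.72 and 1.56 in Control and 2.98 and 1.94 in HAND1_OE.

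The chains of type 1 collagen, the most common fibril of the body, were lower in HAND1_OE, below the threshold of the test. COL1A1 stood at 89.9 and 79.7 FPKM (Control) against 70.0 and 74.0 FPKM (HAND1_OE) (log2 fold change -0.23, SE 0.147, adjusted p = 0.520). COL1A2 stood at 154 and 141 FPKM (Control) against 68.6 and 101 FPKM (HAND1_OE) (log2 fold change -0.82, SE 0.217, adjusted p = 0.123). Without HAND1_OE replicate 2 the adjusted p of COL1A2 was 0.0488. For both chains the groups lay apart. The ratio of COL1A1 to COL1A2 was 0.582 and 0.564 in Control and 1.02 and 0.734 in HAND1_OE. The ratio of COL3A1 to COL1A1 was 1.78 and 1.23 in Control and 4.63 and 3.26 in HAND1_OE, so type 3 RNA exceeded COL1A1 RNA by more in both HAND1_OE libraries.

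The cartilage fibril chains were low. COL2A1, the main fibril chain of cartilage, stood at 5.34 and 6.89 FPKM (Control) against 5.39 and 7.98 FPKM (HAND1_OE), and the groups overlapped. COL11A1 stood at 10.4 and 16.7 FPKM (Control) against 6.10 and 8.06 FPKM (HAND1_OE) (log2 fold change -0.82, SE 0.265, adjusted p = 0.193). COL11A2 stood at 1.32 and 1.29 FPKM (Control) against 0.860 and 0.951 FPKM (HAND1_OE) (log2 fold change -0.28, SE 0.203, adjusted p = 0.583). Both type 11 chains lay lower in HAND1_OE without overlap, and neither was called.

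**Figure D4:**
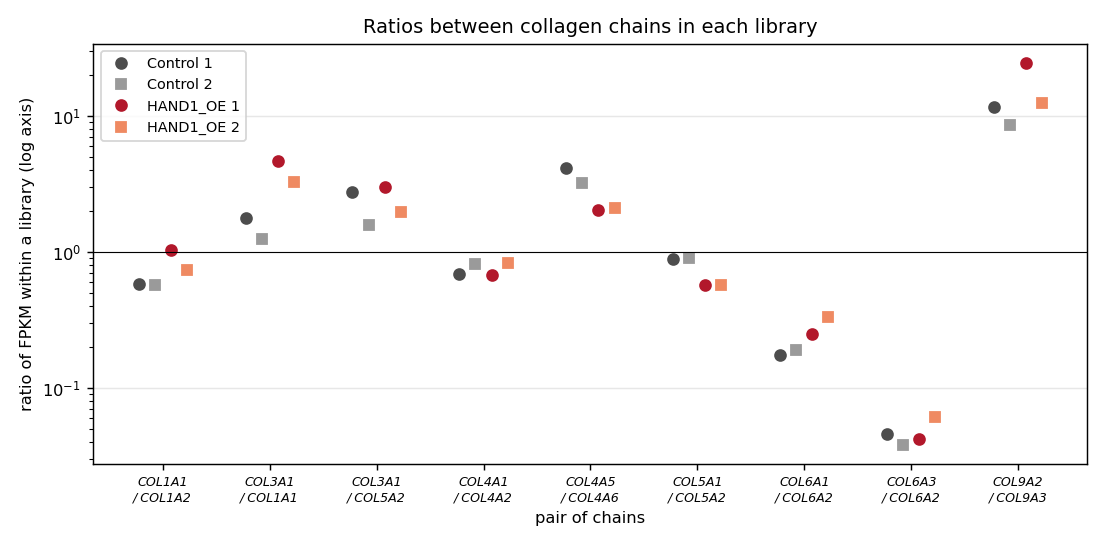
Ratio of FPKM between pairs of chains that assemble together, lie next to each other or form the main fibrils, with a point for each library on a log axis and a line at a ratio of 1. COL5A1 to COL5A2 and COL4A5 to COL4A6 are lower in both HAND1_OE libraries, COL1A1 to COL1A2 and COL6A1 to COL6A2 are higher, and COL4A1 to COL4A2 overlaps.

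COL24A1 encodes a fibril-like chain outside the main fibrillar types (ENSG00000171502.14, chromosome 1, bases 85729233 to 86156943, minus strand). It stood at 2.32 and 4.46 FPKM (Control) against 0.384 and 0.143 FPKM (HAND1_OE), with a wide gap between the groups at a low level. COL24A1 passed the filter only through its Control libraries, so its fold change of -1.76 (SE 0.303, adjusted p = 0.0415) had to differ and is given as a description. With 1 FPKM required in every library it was not tested, and 0 chains were called lower, with 2 at an unadjusted p under 0.05 in limma. The adjusted p of COL24A1 was 0.104 without Control replicate 2, 0.0533 without HAND1_OE replicate 2 and 0.235 when all genes above 0 were tested. COL27A1, the other fibril-like chain, stood at 14.2 and 11.99 FPKM (Control) against 19.7 and 23.01 FPKM (HAND1_OE) (log2 fold change 0.66, SE 0.17, adjusted p = 0.112). The groups of COL27A1 lay apart in the opposite direction.

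Type 6 collagen, which forms beaded filaments around cells, was the most abundant collagen outside the main classes. COL6A2 was the highest chain in both Control libraries, at 349 and 314 FPKM, and was listed at 406 and 299 FPKM in HAND1_OE, so the groups overlapped (log2 fold change 0.07, SE 0.204, adjusted p = 0.912). COL6A1 stood at 60.5 and 59.0 FPKM (Control) against 101 and 98.0 FPKM (HAND1_OE). The groups of COL6A1 were tight and apart, and it missed the threshold as the chain just outside it (log2 fold change 0.73, SE 0.137, adjusted p = 0.0517), while COL24A1 was the chain just inside. COL6A1 passed in 7 of 14 alternatives. It did so with quantile normalization (adjusted p = 0.0417), median-ratio scaling (0.0348), 1 FPKM in every library (0.0472) and protein-coding genes alone (0.0366). The others were the replicate number as a block (0.0193), removal of the length and GC trend (0.0235) and both together (0.005). It missed with a pseudocount of 0.1 (0.0563), with no limma trend (0.0742), with all genes above 0 (0.153) and without each library in turn (adjusted p from 0.139 to 0.243). The ratio of COL6A1 to COL6A2, neighbours on chromosome 21, was 0.173 and 0.188 in Control and 0.249 and 0.328 in HAND1_OE. COL6A3 stood at 15.9 and 11.96 FPKM (Control) against 17.04 and 18.2 FPKM (HAND1_OE) (log2 fold change 0.33, SE 0.184, adjusted p = 0.457).

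Of the remaining chains above 5 FPKM, COL9A2, a chain that decorates cartilage fibrils, stood at 25.8 and 23.6 FPKM (Control) against 19.3 and 20.2 FPKM (HAND1_OE) (log2 fold change -0.31, SE 0.145, adjusted p = 0.369). COL23A1, a membrane-spanning collagen, stood at 21.3 and 14.8 FPKM (Control) against 31.3 and 22.4 FPKM (HAND1_OE) (log2 fold change 0.55, SE 0.246, adjusted p = 0.338). Their groups did not overlap. COL7A1, the anchoring fibril chain of skin, stood at 20.3 and 11.2 FPKM (Control) against 12.5 and 6.06 FPKM (HAND1_OE), and COL25A1, another membrane-spanning chain, at 3.65 and 6.32 FPKM against 5.79 and 7.27 FPKM. The groups overlapped for COL7A1 (log2 fold change -0.72, SE 0.396, adjusted p = 0.449) and for COL25A1 (log2 fold change 0.36, SE 0.267, adjusted p = 0.587).

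Below 5 FPKM, COL9A3 stood at 2.24 and 2.77 FPKM (Control) against 0.792 and 1.64 FPKM (HAND1_OE) (log2 fold change -0.68, SE 0.261, adjusted p = 0.261), and its groups lay apart. COL13A1 and COL22A1 had overlapping groups, with fold changes of 0.06 and 0.18. The 17 chains that were not tested lay between 0 and 1.04 FPKM. Of them, 6 lay apart and higher in HAND1_OE, 4 lay apart and lower and 7 overlapped, and none was at 0 in every library. Of the 15238 genes above 0 that were not tested, 11.1% lay apart and higher and 19.6% apart and lower. The 14 of other types, at most 0.818 FPKM, include the network chains COL8A1, COL8A2 and COL10A1 and the fibril-associated chains COL12A1 and COL14A1. COL20A1 was listed at 0 in 3 libraries and at 0.0315 FPKM in HAND1_OE replicate 1.

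Genes that make, trim or read collagen were taken from 5 lists. Of 60 tested genes in these lists, 9 were called higher and 1 lower, or 16.7%, beside 4.16% of all tested genes (2.04% higher and 2.11% lower), and the called genes were spread over all 5 lists. ITGA11 and ADAMTS14 passed the filter only through HAND1_OE, where they are high, and without them 8 of 58 genes were called higher and 1 lower. Among 18 genes of prolyl and lysyl modification, 16 were tested with a median of 0.15, P4HA2 was called higher and P3H2 lower. P4HA2, a subunit of the prolyl 4-hydroxylase that stabilises the collagen helix, stood at 14.8 and 16.2 FPKM (Control) against 33.9 and 30.5 FPKM (HAND1_OE) (log2 fold change 1.01, SE 0.15, adjusted p = 0.0296). P3H2, a prolyl 3-hydroxylase that acts on type 4 chains, stood at 15.1 and 20.6 FPKM (Control) against 6.76 and 7.99 FPKM (HAND1_OE) (log2 fold change -1.16, SE 0.204, adjusted p = 0.0441). The 2 enzymes thus changed in opposite directions, and neither had overlapping groups.

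All 15 genes of folding and export were tested, with a median of 0.17, and SPARC was called. SPARC, a collagen-binding chaperone and matrix protein, stood at 505 and 594 FPKM (Control) against 1450 and 1387 FPKM (HAND1_OE) (log2 fold change 1.37, SE 0.181, adjusted p = 0.022). SERPINH1, the collagen chaperone HSP47, had means of 468 ± 32.3 and 482 ± 30.9 FPKM (SD, n = 2) and was not called. Of 16 genes of procollagen processing and crosslinking, 13 were tested with a median of 0.27 (0.23 without ADAMTS14), and ADAMTS2 and BMP1 were called higher. ADAMTS2, which removes the amino end of fibrillar procollagens, stood at 1.497 and 0.903 FPKM (Control) against 8.92 and 9.12 FPKM (HAND1_OE) (log2 fold change 2.20, SE 0.207, adjusted p = 0.009). BMP1, which removes the carboxyl end, stood at 15.7 and 15.4 FPKM (Control) against 31.6 and 35.4 FPKM (HAND1_OE) (log2 fold change 1.06, SE 0.147, adjusted p = 0.025). Both proteases were higher in each HAND1_OE library than in either Control library.

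Of 11 collagen receptor genes, 8 were tested with a median of 0.42 (0.33 without ITGA11), and the integrin alpha subunits ITGA1, ITGA2 and ITGA11 were called higher. ITGA1, which pairs with ITGB1 into a receptor for type 4 collagen, stood at 4.37 and 4.97 FPKM (Control) against 15.02 and 20.2 FPKM (HAND1_OE) (log2 fold change 1.70, SE 0.198, adjusted p = 0.0159). ITGA2 stood at 3.05 and 4.68 FPKM (Control) against 9.93 and 12.6 FPKM (HAND1_OE) (log2 fold change 1.35, SE 0.234, adjusted p = 0.0419). ITGA11, a receptor for fibrillar collagen, stood at 0.358 and 0.327 FPKM (Control) against 2.47 and 2.61 FPKM (HAND1_OE) (log2 fold change 1.40, SE 0.201, adjusted p = 0.0263), which is a description, since it passed the filter only through HAND1_OE. Without ITGA11, 2 of 7 receptor genes were called. The common partner ITGB1 had means of 162 ± 45.2 and 201 ± 45.5 FPKM (SD, n = 2) and was not called. Of 13 genes that bind collagen fibrils, 8 were tested with a median of 0.20, and LUM and FN1 were called higher. LUM, the small proteoglycan lumican, stood at 14.8 and 17.7 FPKM (Control) against 50.1 and 39.7 FPKM (HAND1_OE) (log2 fold change 1.41, SE 0.184, adjusted p = 0.0214). FN1, which encodes fibronectin, stood at 574 and 541 FPKM (Control) against 1613 and 1266 FPKM (HAND1_OE) (log2 fold change 1.36, SE 0.198, adjusted p = 0.028). ASPN was listed at 0 in all libraries.

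**Figure D5:**
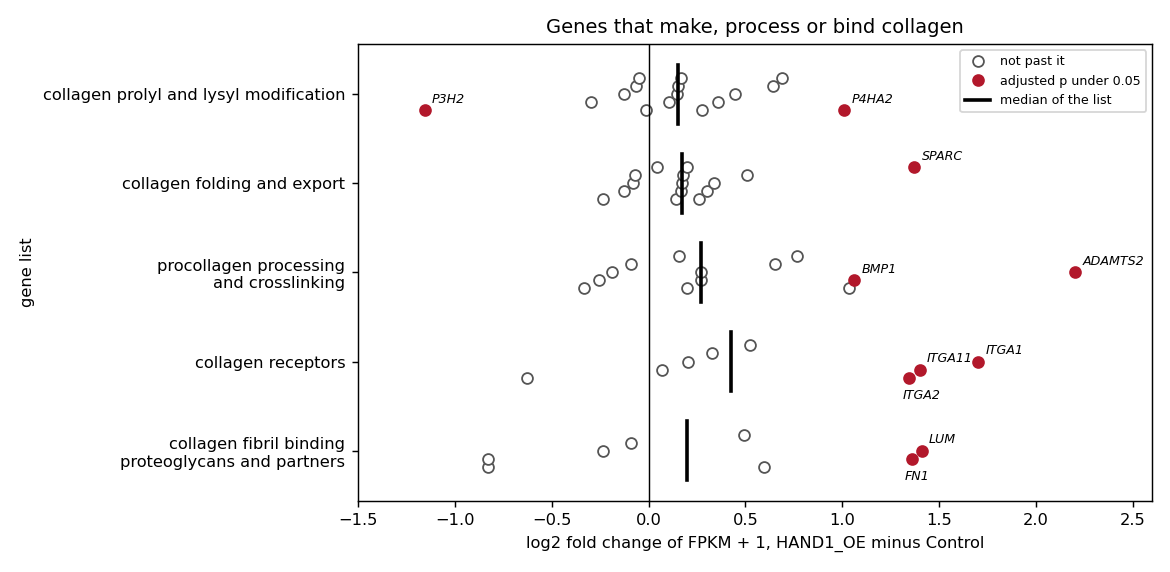
Each point is a tested gene of a list that modifies, folds, processes, senses or binds collagen, placed by its log2 fold change of FPKM + 1 (HAND1_OE minus Control), with filled points at an adjusted p under 0.05 and a bar at the median of the list. Called genes are named, and P3H2 at -1.16 is the only called gene below 0.

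Markers of other cell types were read beside these values. Of all tested genes, 2.04% were called higher and 2.11% lower, and 38.7% had a fold change above 0. Without overlap, 16.2% lay higher and 30.1% lower. Summed over 10 fibroblast and stroma markers, the level was 572 and 561 FPKM (Control) against 774 and 843 FPKM (HAND1_OE). Of 5 tested markers, 2 were called higher, PDGFRB and LUM, and LUM was already counted among the genes that bind collagen fibrils. THY1 and FBLN1 made up most of these sums. THY1, at 378 and 383 FPKM (Control) against 553 and 628 FPKM (HAND1_OE), carried most of the gap and was not called (adjusted p = 0.117). Of the 5 tested markers, 4 had a fold change above 0 and 1 below, with a median of 1.20. PDGFRA, at 3.54 and 4.22 FPKM (Control) against 8.33 and 12.4 FPKM (HAND1_OE), lay apart and higher (log2 fold change 1.20, adjusted p = 0.0547). FBLN1, at 165 and 148 FPKM against 128 and 134 FPKM, lay apart and lower (log2 fold change -0.26, adjusted p = 0.473). DCN and PRRX1 overlapped. DPT, a fibroblast marker, was listed at 0 in Control and stood at 0.0508 and 0.0292 FPKM (HAND1_OE). The 10 smooth muscle and pericyte markers summed to 332 and 319 FPKM (Control) against 295 and 332 FPKM (HAND1_OE), and the 10 cardiac muscle markers to 48.8 and 32.2 FPKM against 28.1 and 30.4 FPKM. No marker was called in either list, but tested members moved both ways. CSPG4, at 1.61 and 8.03 FPKM (Control) against 21.7 and 26.6 FPKM (HAND1_OE), and ACTA2 lay apart and higher, and RGS5 apart and lower. TNNT2, at 1.39 and 1.64 FPKM against 3.50 and 6.37 FPKM, lay apart and higher, and NKX2-5, at 40.9 and 22.9 FPKM against 19.6 and 14.7 FPKM, apart and lower. The 12 endothelial markers summed to 2264 and 1775 FPKM (Control) against 2270 and 1987 FPKM (HAND1_OE), with VWF called higher and CLDN5 lower. The 12 blood cell markers summed to 433 and 647 FPKM (Control) against 36.7 and 25.3 FPKM (HAND1_OE), and all 10 tested were called lower. The part of these cells in the collagen values was not tested.

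No marker was called in the other 3 lists. The 10 chondrocyte and notochord markers summed to 381 and 302 FPKM (Control) against 417 and 527 FPKM (HAND1_OE). HAPLN1, a linker of cartilage matrix, made up nearly all of that sum, at 367 and 286 FPKM (Control) against 408 and 513 FPKM (HAND1_OE). SOX9, a defining chondrocyte factor that passed the filter only through Control, lay apart and lower, at 2.20 and 2.55 FPKM against 0.523 and 0.848 FPKM. SOX6 and NOG also lay apart and lower, as did COMP and TBXT, which were too low to be tested (at most 0.142 FPKM). MATN1, not tested either, lay apart and higher, at 0.399 and 0.420 FPKM (Control) against 0.527 and 0.464 FPKM (HAND1_OE). Of the 6 tested markers, 3 had a fold change above 0 and 3 below. The 10 endoderm and epithelial markers summed to 418 and 587 FPKM (Control) against 474 and 968 FPKM (HAND1_OE), higher in replicate 2 of each group. So were COL4A1, COL4A2, COL4A5, COL4A6 and COL15A1 among the basement membrane chains, but COL18A1 was higher in replicate 1 of HAND1_OE. Same-numbered libraries also deviated together over all 14622 tested genes, these markers included (r = 0.38). How far the pattern reaches beyond these markers was not tested. The 8 pluripotent cell markers summed to 96.7 and 149 FPKM (Control) against 89.1 and 144 FPKM (HAND1_OE), also higher in replicate 2 of each group, as was PECAM1. The part of these cells was not tested either.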

How the data were processed

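Total RNA of 2 Control and 2 HAND1_OE libraries was sequenced after preparation with an Illumina TruSeq kit, with groups as the titles give them. The table that the authors deposited, with 1 value per gene and library, names no unit. The deposited values, made by the authors with the tools below in roles that are not stated, were read as FPKM, the unit of the study's plots of such cells, since they are neither whole nor of equal sum. The submitters' processing notes name BWA, Bowtie, RSEM and hg19 with no versions, whereas the gene IDs and coordinates fit GRCh38 (97.6% of matched genes had the start and end of GENCODE 29). Coordinates here are those of the table, counted from 1. Depth and any scaling between libraries are not given in the sources used here, which limits the precision of low values most.

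Of 58365 rows, 45 for Y copies of pseudoautosomal genes and 91 further rows that shared a gene ID were left out. The 14622 genes that reached 1 FPKM in at least 2 libraries were compared as log2(FPKM + 1), with a pseudocount of 1. The two-sided test was that of limma 3.58.1 under R 4.3.3, with the mean-variance trend and no covariate, and Benjamini-Hochberg adjustment covered all tested genes. The fit was tested on simulated data. Lists were described by counts and medians. The collagen chains, classes, gene lists and tests were chosen with earlier results of these data known, so the counts are not independent evidence.

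Chains were named where they were called or had a mean of at least 5 FPKM in a group, and from each list the called members were named, with HAND1 and the chain on each side of the threshold. SLC19A1, SERPINH1, ITGB1, THY1, FBLN1, DPT, DCN, PRRX1, HAPLN1, SOX9, SOX6, COMP, TBXT, NOG, MATN1, ADAMTS14, CLDN5, VWF, PDGFRA, PDGFRB, CSPG4, ACTA2, RGS5, TNNT2, NKX2-5 and the chains below 5 FPKM given with values were named after their values were seen. Alternatives changed the pseudocount (0.1), the filter (all genes above 0, or 1 FPKM in every library), the scaling (quantile or median-ratio), the trend (none), the libraries (each left out), the genes (protein-coding alone) and the threshold (a fold change of at least 2 as well). Others took the replicate number as a block, or removed the trend on transcript length and GC content, alone and together with that block.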

Additional observations from a re-analysis of the deposited data

How the results depend on the processing

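Of the 27 tested chains, 22 kept their direction under all alternatives run. The exceptions had small fold changes or libraries that disagreed. With a library left out in turn, COL2A1 ran from -0.15 (without HAND1_OE replicate 2; -0.058 without Control replicate 1) to 0.35, COL6A2 from -0.15 (without HAND1_OE replicate 1; -0.0043 without Control replicate 2) to 0.29, COL13A1 from -0.31 to 0.43, COL15A1 from -1.67 to 0.13 and COL22A1 from -0.067 to 0.43. COL13A1 and COL22A1 turned when replicate 2 of either group was left out (-0.049 and -0.028 for that of Control), and COL15A1 when HAND1_OE replicate 1 was. COL6A2 was also -0.039 with quantile normalization. The cause was not tested.

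When all 29860 genes above 0 were tested, no gene was called in limma (0 higher and 0 lower, with 1458 and 2352 at an unadjusted p under 0.05), no collagen chain was called (0 and 0, with 10 and 3 unadjusted, of 44), and the adjusted p of HAND1 was 0.153 at an unchanged 5.20. With 1 FPKM required in every library, COL24A1 was not tested, 0 chains were called lower (2 at an unadjusted p under 0.05) and the fibrillar median was 0.10. The fibrillar median was also above 0 with quantile normalization, median-ratio scaling, all genes above 0 and removal of the length and GC trend. That removal gave 417 genes higher and 281 lower, beside 299 and 309.

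Same-numbered libraries deviated together (r = 0.38 over 14622 genes), but 2 pairs do not show that the numbers pair the samples. With the replicate number as a block, 597 genes were called higher and 712 lower, and 9 collagen chains higher and 3 lower. COL3A1, COL4A1, COL4A2, COL4A6, COL6A1 and COL23A1 were then called higher, and COL7A1 and COL11A1 lower, besides the 4 chains above. With the length and GC trend removed and the block, 1032 genes were called higher and 836 lower, and 10 chains higher and 4 lower.

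Leaving out a library in turn gave 134 to 266 genes higher and 137 to 309 lower, with the fewest without Control replicate 2 (134 and 137) and next Control replicate 1 (141 and 144). It gave 2 chains higher throughout and 0 to 2 lower, with the 0 for Control replicate 2 and the 2 for HAND1_OE replicate 2 left out. The fibrillar median ran from -0.21 to 0.078, the basement membrane median from 0.50 to 1.03, the median of other chains from -0.0043 to 0.38, and HAND1 from 5.08 to 5.31. A lone library left in a group is assumed to vary like the other group. With no counts, depth sets no stated floor, and chains under 1 FPKM in 3 or more libraries were outside the main test.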
